A study of Mus musculus with 16 samples.

Results

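The gastrocnemius of tumor-bearing mice with cancer cachexia (CAC) was compared with that of normal mice (NOR) in 8 of the 16 RNA-seq libraries of the study, with 4 mice in each group and both tumor models pooled. The question addressed here was which parts of the muscle program differed besides glycolysis, ketone body use and the best known atrophy genes. Each group held 2 mice labelled C57BL/6 (replicates 1 and 2) and 2 mice labelled BABL/c, which is BALB/c (replicates 3 and 4). The CAC mice received tumor cells under the skin of the right flank on day 0, 700000 Lewis lung carcinoma (LLC) cells in C57BL/6 mice and 1000000 CT26 colon carcinoma cells in BALB/c mice, and the NOR mice received phosphate-buffered saline (PBS). Both groups were given daily intraperitoneal PBS from day 9, and muscle was taken on day 30. Strain and tumor line therefore changed together and cannot be told apart. The methods describe the mice as adult males, whereas the growth protocol names both sexes for BALB/c. For 4 genes of a list of Y-linked genes and Xist, the median log2 level relative to the NOR mean lay between −0.101 (NOR-2) and 0.379 (CAC-1). No library stood apart from the others in this list. The libraries were made from polyadenylated RNA of 1 mouse each, so the p-values below measure the spread between these mice.

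Muscle mass reflects a balance between the making and the breakdown of protein. In wasting muscle, FoxO transcription factors and glucocorticoids are known to switch on ubiquitin ligases, proteasome subunits and autophagy genes, while insulin-like growth factor and mTOR signalling favour protein synthesis. Muscle fibres are surrounded by a collagen network made mainly by fibroblasts, and their contraction rests on calcium release from the sarcoplasmic reticulum and on energy from mitochondria and phosphocreatine.

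The 8 libraries held between 43676601 and 59807648 counted reads, and 14666 of the 21923 genes in the table had enough reads for testing. Expression is given in CPM (read counts scaled to a common library size), a differentially expressed gene (DEG) had a Benjamini-Hochberg false discovery rate (FDR) of at most 0.05 in edgeR's quasi-likelihood test and a fold change of at least 1.5, and error is the standard error (SE) of the log2 fold change. Of the genes tested, 4.32% were upregulated DEGs and 5.13% were downregulated DEGs. In 12.3% of the genes every CAC mouse lay above every NOR mouse, and in 10.6% every CAC mouse lay below every NOR mouse. The median log2 fold change of all genes tested was 0.0118. Scaling by total counts alone raised that median by 0.126 on the log2 scale and made 60.8% of the DEGs upregulated, against 45.7% with the scaling used here. All 1386 DEGs had the same sign in the C57BL/6 and the BALB/c mice, and in 1345 of them the groups did not overlap. Calling DEGs on these same pooled mice favours both, so neither number measures agreement between the strains. Of the DEGs, 618 (276 up and 342 down) were called whichever 1 of the 8 mice was left out. Genes were counted without stated use of strand, so reads of overlapping antisense genes cannot be told apart.

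Muscle identity was clear in every library: the 9 muscle fibre markers summed to between 147857 and 224207 CPM in NOR and between 81595 and 167735 CPM in CAC. NOR-1, CAC-1 and CAC-4 stood apart from the other 5 libraries. Their summed B cell markers were 4.18, 1.48 and 1.55 CPM, against 158 to 427 CPM in the other libraries, and their T cell markers were 1.94, 2.26 and 1.16 CPM, against 55.2 to 158 CPM. The first principal component, with 43.4% of the variance, separated these same 3 libraries from the rest, and their slow-fibre genes had the highest medians of their groups. Without them 225 genes were upregulated and 173 downregulated in a comparison of 3 NOR with 2 CAC mice, a check added after the data had been seen, and 110 of the 171 DEGs named by rule were no longer called while none changed direction. Counts from this check stand beside most of the gene groups below as counts without the 3 libraries.

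**Figure D1:**
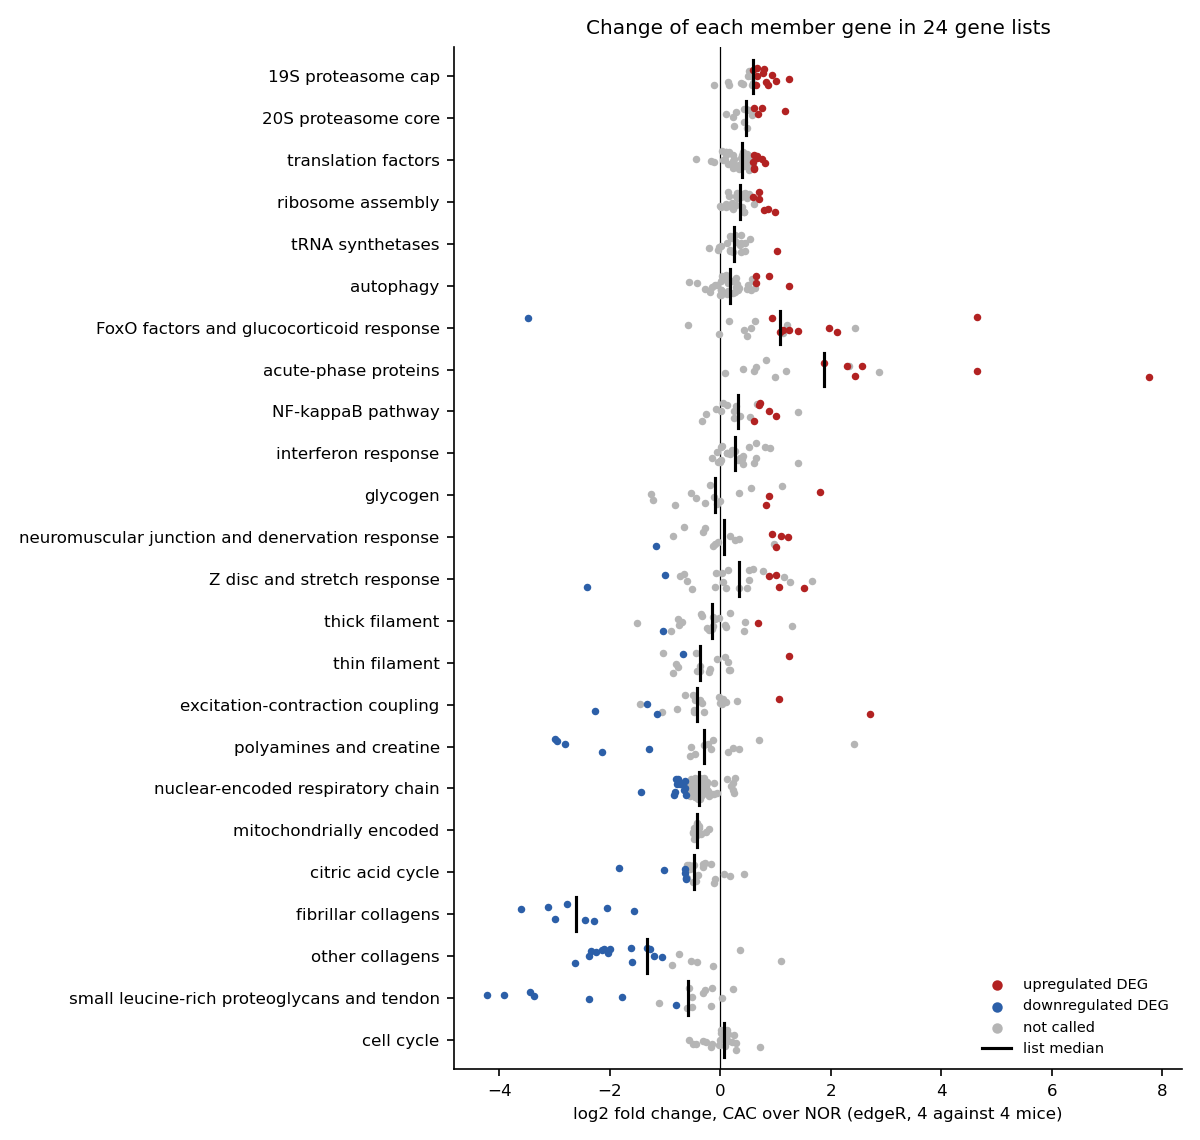
Log2 fold change of CAC over NOR (x axis) for each tested member of 24 gene lists (rows), with upregulated DEGs in red, downregulated DEGs in blue, other members in grey and the list median as a black bar. The 8 fibrillar collagens lie between −3.61 and −1.56, and the 21 members of the 19S proteasome cap between −0.117 and 1.24.

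Leaving aside 43 genes, mainly of glycolysis, ketone use and well known atrophy responses (among them Cdkn1a, with a log2 fold change of 2.93, and Actc1, with −5.38), the 15 largest increases among DEGs with a mean of at least 10 CPM in one group were those of Saa3, Mt2, Mmp8, Lcn2, Cd177, Chil3, S100a8, Mt1, Ifitm6, S100a9, Acer2, Retnlg, Depp1, Selp and Sln, from 7.76 to 2.71 on the log2 scale. Most of these are acute-phase, metal-binding or white cell genes. The call of Mmp8 was lost without NOR-2, NOR-3 or CAC-1 (FDR from 0.0503 to 0.0732), and that of Chil3 lost without NOR-2 or NOR-3 (FDR from 0.0558 to 0.0680). Acer2, an alkaline ceramidase of the Golgi, was at 6.23, 6.07, 5.84 and 18.3 CPM in NOR and 62.5, 67.6, 62.7 and 123 CPM in CAC (log2 fold change 3.11 ± 0.453, FDR = 0.00559). Depp1, a FoxO target that regulates autophagy, was at 23.0, 11.3, 15.9 and 30.5 CPM in NOR and 302, 54.9, 76.6 and 169 CPM in CAC (log2 fold change 2.90 ± 0.574, FDR = 0.0154), a call lost without NOR-3 (FDR = 0.0545). With the same genes left aside, the 15 largest decreases were those of Kera, Cilp2, Mdga1, Nnat, Col1a1, Foxo6, Chad, Fgfbp1, Tnmd, Kcng4, Nrep, Cited4, Col1a2, Col3a1 and Amd1, from −4.22 to −2.99. Matrix genes made up 7 of them. Cited4, a transcriptional co-regulator, was at 50.4, 41.3, 39.9 and 23.5 CPM in NOR and 4.16, 7.53, 2.90 and 2.66 CPM in CAC (log2 fold change −3.17 ± 0.386, FDR = 0.00337). Of all 30 genes, the groups overlapped for Nnat alone, whose call was lost without NOR-2, NOR-3, NOR-4, CAC-1, CAC-3 or CAC-4 (FDR from 0.0764 to 0.0982).

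Collagen genes fell together. Each of the 8 fibrillar collagens tested was a downregulated DEG, with log2 fold changes from −3.61 for Col1a1 to −1.56 for Col5a2 and a list median of −2.61, and all 8 were called whichever mouse was left out. Of 21 other collagens, 14 fell and none rose (median −1.33), and all fits with 1 mouse left out also called 14. Without the 3 libraries named above, 7 of the 8 and 9 of the 21 were downregulated DEGs.

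Col1a1 (chr11:94936224-94953042), which encodes the main chain of type I collagen, was at 885, 693, 517 and 589 CPM in NOR-1 to NOR-4 and at 67.1, 52.7, 39.9 and 60.6 CPM in CAC-1 to CAC-4. It was 12.2-fold lower in CAC (log2 fold change −3.61 ± 0.235, FDR = 0.000728). The highest CAC mouse lay far below the lowest NOR mouse, in both strains. Its partner chain Col1a2 went from 1113, 879, 694 and 829 CPM in the NOR mice to 115, 109, 70.0 and 111 CPM in the CAC mice (log2 fold change −3.12 ± 0.218, FDR = 0.000728). Col3a1, the type III collagen of the fibre sheaths, was at 1005, 1027, 678 and 969 CPM in NOR and 168, 98.9, 93.0 and 99.2 CPM in CAC (log2 fold change −3.003 ± 0.244, FDR = 0.00129). The groups lay far apart for both genes. The chains of type VI collagen, which anchors fibres to their surroundings, were downregulated DEGs, with log2 fold changes of −2.63 (Col6a2), −2.35 (Col6a1) and −2.10 (Col6a3). Col4a1, the common basement membrane collagen, was not called (1037, 784, 533 and 559 CPM in NOR, 426, 346, 339.7 and 615 CPM in CAC, log2 fold change −0.75 ± 0.274, FDR = 0.106), and its groups overlapped.

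Genes of tendon and of small leucine-rich proteoglycans, which space collagen fibrils, fell in part: 7 of 18 were downregulated DEGs and none was upregulated (median −0.589, 6 to 8 with 1 mouse left out, 4 without the 3 libraries). Kera (keratocan) was at 33.8, 17.2, 16.9 and 13.2 CPM in NOR-1 to NOR-4 and 1.32, 1.77, 0.231 and 1.05 CPM in CAC-1 to CAC-4, an 18.6-fold decrease (log2 fold change −4.22 ± 0.585, FDR = 0.00473). No CAC mouse came near the NOR range. Cilp2, a cartilage matrix protein gene, went from 55.7, 42.9, 32.2 and 36.0 CPM to 3.43, 4.73, 1.54 and 1.33 CPM (log2 fold change −3.93 ± 0.441, FDR = 0.00272). Tnmd (tenomodulin), a marker of tendon cells, went from 37.96, 24.5, 17.6 and 16.7 CPM to 2.65, 2.55, 1.38 and 2.73 CPM (log2 fold change −3.38 ± 0.340, FDR = 0.00214). The tendon transcription factor Scx, by contrast, was at 18.7, 9.95, 8.10 and 7.83 CPM in NOR and 12.8, 11.4, 8.94 and 18.6 CPM in CAC and was not called (log2 fold change 0.22 ± 0.330, FDR = 0.727). The broad proteoglycan genes Dcn (log2 fold change −0.16 ± 0.157) and Bgn (−0.32 ± 0.141) were not called either, with FDR = 0.559 and 0.179.

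Of 25 genes that process collagen, 11 fell and 1 rose (median −0.616). Leaving out NOR-1, NOR-2 or NOR-3 left 7 downregulated DEGs in each case, and the fit without the 3 libraries called 8. Loxl2, which cross-links collagen, was at 73.5, 69.5, 59.8 and 49.8 CPM in NOR and 18.6, 14.8, 14.9 and 22.5 CPM in CAC (log2 fold change −1.84 ± 0.179, FDR = 0.00197). Adamts2, which trims procollagen, was at 59.1, 51.9, 45.1 and 57.2 CPM in NOR and 19.6, 20.5, 15.03 and 25.5 CPM in CAC (log2 fold change −1.405 ± 0.166, FDR = 0.00301). For both genes every CAC mouse lay below every NOR mouse. The single upregulated member was another cross-linking enzyme, Lox, at 31.0, 28.1, 19.1 and 22.2 CPM in NOR and 56.2, 45.1, 35.5 and 104 CPM in CAC (log2 fold change 1.26 ± 0.328, FDR = 0.0381), a call lost without NOR-1, NOR-2, NOR-3, NOR-4 or CAC-1 (FDR from 0.0602 to 0.107) and without the 3 libraries. Of 20 laminin and basement membrane genes 6 fell (5 without the 3 libraries) and 1 rose, Itga5, a call lost without NOR-4 or CAC-4 (FDR from 0.0171 to 0.0325) and without the 3 libraries. A call lost at an FDR below 0.05, as for Itga5, was lost because the fold change fell short of 1.5. Sparc, a collagen chaperone, was at 1516, 1215, 1025 and 1341 CPM in NOR and 661, 574, 415 and 506 CPM in CAC (log2 fold change −1.24 ± 0.186, FDR = 0.00613). Fn1 (fibronectin) was at 375, 303, 238 and 318 CPM in NOR and 170.2, 144, 117 and 101 CPM in CAC (log2 fold change −1.22 ± 0.197, FDR = 0.00823). The 8 markers of fibro-adipogenic cells, the main collagen-making cells of muscle, summed to 3641 to 4682 CPM in NOR and 1705 to 3041 CPM in CAC, and 2 of them fell. These were Dpt (log2 fold change −1.47) and Clec3b (−1.33), and the count was 4 without CAC-3, 5 without CAC-4 and 4 with upper quartile scaling. Fewer cells of a type and less RNA per cell cannot be told apart in bulk tissue, and the part of these markers in the collagen decrease was not tested.

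**Figure D2:**
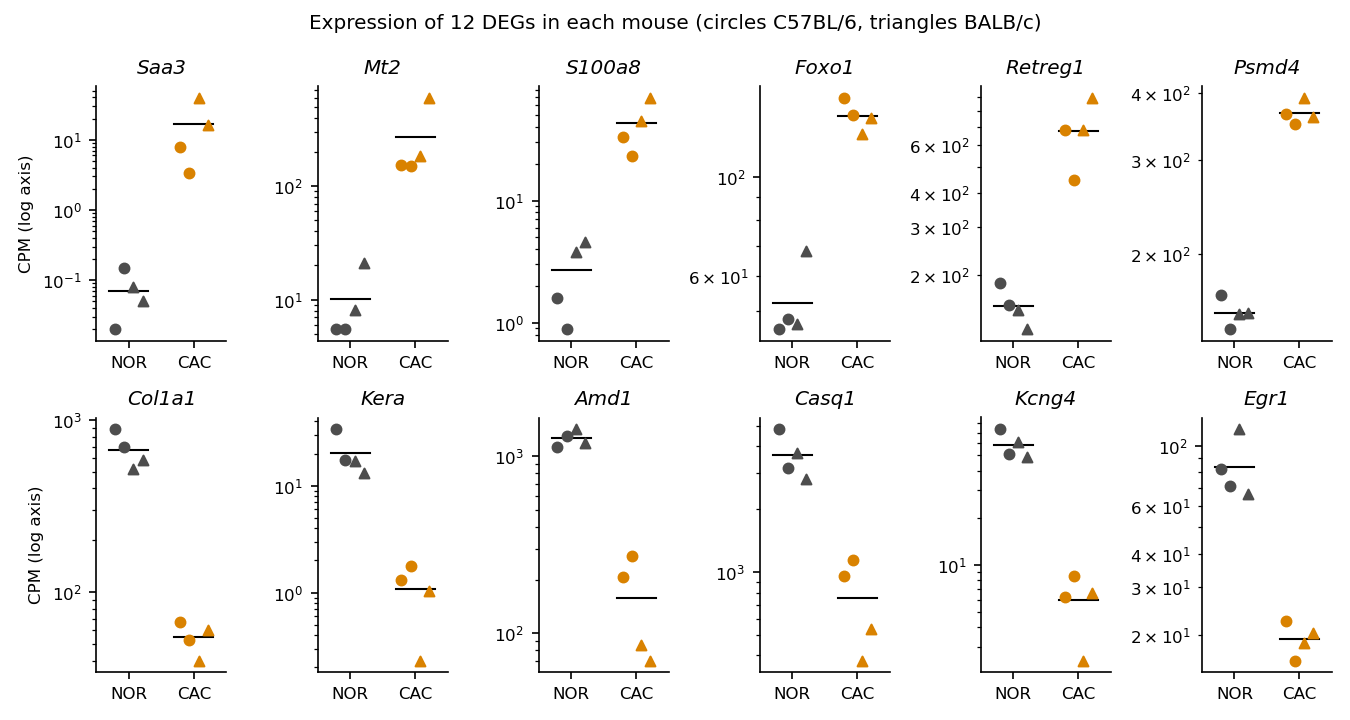
Expression in CPM (log y axes) of 12 DEGs in each of the 4 NOR (grey) and 4 CAC (orange) mice, with circles for C57BL/6, triangles for BALB/c and a bar at the group mean. The level of Saa3 in NOR-1, which had no read, is drawn at 0.02 CPM, and in each panel the groups do not overlap.

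At the other end, an acute-phase and a metal-binding gene, Saa3 and Mt2, had the 2 largest increases among the 15 named above. The largest was that of Saa3 (chr7:46711998-46715700), a serum amyloid A gene expressed outside the liver, which was at 0, 0.150, 0.0808 and 0.0512 CPM in NOR-1 to NOR-4 and 7.99, 3.32, 39.8 and 16.4 CPM in CAC-1 to CAC-4 (log2 fold change 7.76 ± 1.03, FDR = 0.00416). It was hardly detected in the normal muscles, so the size of the fold change is uncertain. Of 15 acute-phase genes tested, 6 rose and none fell (median 1.87). The others were Saa1, a call lost without NOR-2, NOR-3, NOR-4 or CAC-1 (FDR from 0.0534 to 0.0615), Itih4, a call lost without NOR-1, NOR-2, NOR-3, NOR-4, CAC-2, CAC-3 or CAC-4 (FDR from 0.0527 to 0.111), Serpina3m, a call lost without NOR-1, NOR-2, NOR-3, CAC-1, CAC-2 or CAC-3 (FDR from 0.0552 to 0.0849), Lcn2 and Lrg1. Reads of the Saa family may be split between near-identical copies. The count was 3 without NOR-2, 2 without NOR-3 and 2 without the 3 libraries. Lcn2 (lipocalin-2), which binds bacterial iron carriers, was at 0.738, 1.05, 2.14 and 4.48 CPM in NOR and 28.0, 14.4, 31.5 and 139 CPM in CAC (log2 fold change 4.65 ± 0.895, FDR = 0.0141). Its CAC levels were spread over a wide range, highest in CAC-4, and its FDR was 0.0513 without NOR-3. Hp (haptoglobin) overlapped between the groups, at 37.5, 105, 45.3 and 191 CPM in NOR and 56.7, 139, 161 and 510.3 CPM in CAC (log2 fold change 1.19 ± 0.728, FDR = 0.322). Liver makes most acute-phase proteins, and the 8 liver markers summed to 47.6 to 487 CPM in NOR and 58.9 to 480 CPM in CAC, highest in NOR-4, with none of the 4 tested called by edgeR (1 at an unadjusted p under 0.05, and 0 by DESeq2 and by limma-voom).

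Among 19 genes of metallothioneins and zinc transport, 2 rose and none fell (median 0.0397, 2 in every fit with 1 mouse left out, 1 without the 3 libraries). These were the metallothioneins Mt1 and Mt2, small cysteine-rich proteins that bind zinc and copper. Mt2 was at 5.58, 5.48, 8.06 and 21.1 CPM in NOR-1 to NOR-4 and 154, 149.9, 184 and 602 CPM in CAC-1 to CAC-4, a 27.0-fold increase (log2 fold change 4.76 ± 0.697, FDR = 0.00567). Mt1 was at 18.0, 18.9, 19.6 and 54.3 CPM in NOR and 191, 172, 253 and 1019.6 CPM in CAC (log2 fold change 3.88 ± 0.726, FDR = 0.0129). NOR-4 was the highest normal mouse and CAC-4 the highest tumor-bearing mouse for both genes, and the groups lay apart. The 2 genes are neighbours, Mt1 at chr8:94179082-94180327 and Mt2 at chr8:94172664-94173568 on the plus strand, and their promoters are shown because both genes moved together. The windows run from 250 bases before to 50 bases after the RefSeq transcript start (GRCm38.p6), chr8:94178839-94179138 for Mt1 and chr8:94172368-94172667 for Mt2, with capitals for matches on either strand of TGCNCNC, a loose form of the metal response element.
Mt1: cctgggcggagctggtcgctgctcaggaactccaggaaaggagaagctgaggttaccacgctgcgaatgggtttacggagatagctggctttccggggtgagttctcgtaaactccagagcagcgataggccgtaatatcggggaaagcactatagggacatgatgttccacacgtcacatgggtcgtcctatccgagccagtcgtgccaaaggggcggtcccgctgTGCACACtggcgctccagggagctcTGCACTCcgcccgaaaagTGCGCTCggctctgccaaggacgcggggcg
Mt2: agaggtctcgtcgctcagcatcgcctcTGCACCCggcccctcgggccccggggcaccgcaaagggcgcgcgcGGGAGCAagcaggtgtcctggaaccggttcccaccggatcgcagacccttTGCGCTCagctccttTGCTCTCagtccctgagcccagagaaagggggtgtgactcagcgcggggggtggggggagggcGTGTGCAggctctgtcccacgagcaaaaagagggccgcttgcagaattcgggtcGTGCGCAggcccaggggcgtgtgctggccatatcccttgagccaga
The Mt1 window held 3 matches, a number reached by 1138 of 11336 promoters of tested genes (10.0%). The Mt2 window held 6 matches, a number reached by 38 promoters (0.335%). At least 1 match was found in 59.6% of all these promoters, in 58.8% of 498 promoters of upregulated DEGs and in 62.6% of 546 promoters of downregulated DEGs. A match is a sequence description and was not tested as a binding site. The palindromic STAT motif TTCNNNGAA, searched in the same way, was in 6.83% of all promoters, 9.84% of those of upregulated DEGs and 5.49% of those of downregulated DEGs. The E-box CACGTG was in 9.77%, 10.8% and 6.96%, the FoxO motif TGTTTAC in 2.58%, 2.61% and 2.01%, and the antioxidant element TGACNNNGC in 14.7%, 15.3% and 16.3%, in the same order. The motifs were counted separately, whether or not they overlapped.

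Neutrophil and red cell markers were higher in the CAC muscles. Of 12 neutrophil markers, 5 rose and none fell (median 2.81, 4 to 6 with 1 mouse left out, 1 without the 3 libraries), and their sum was 9.58 to 44.5 CPM in NOR and 129 to 295 CPM in CAC. S100a8, a calcium-binding protein abundant in neutrophils, was at 1.59, 0.883, 3.82 and 4.57 CPM in NOR and 33.4, 23.3, 44.8 and 69.6 CPM in CAC (log2 fold change 3.97 ± 0.580, FDR = 0.00560). Cd177, a neutrophil surface protein, was at 0.137, 0.283, 0.505 and 1.31 CPM in NOR and 11.9, 4.30, 12.4 and 20.01 CPM in CAC (log2 fold change 4.41 ± 0.737, FDR = 0.00887). In both, each CAC mouse lay above the highest NOR mouse. Of 8 red cell markers, 5 rose and none fell (median 2.30), and their sum was 1059 to 1372 CPM in NOR and 3660 to 8688 CPM in CAC. Alas2, the red cell enzyme that starts haem synthesis, was at 11.9, 13.4, 13.1 and 12.1 CPM in NOR and 119.5, 71.0, 65.4 and 48.5 CPM in CAC (log2 fold change 2.59 ± 0.259, FDR = 0.00214). Hba-a1, an alpha globin gene whose reads may be shared with its copy Hba-a2, was at 366, 469, 387 and 389 CPM in NOR and 2746, 1598, 1328 and 1293 CPM in CAC (log2 fold change 2.11 ± 0.262, FDR = 0.00358). The NOR mice were tightly grouped for these genes, and CAC-1 was the highest of the CAC mice.

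Vessel genes also moved. Of 13 endothelial markers, 4 rose and none fell (median 0.270, 2 without NOR-2, 2 without CAC-1 and 0 without the 3 libraries). Vwf (von Willebrand factor) was at 201, 148, 196 and 173 CPM in NOR and 389.5, 358, 298 and 264 CPM in CAC (log2 fold change 0.87 ± 0.157, FDR = 0.0117), and Pecam1 at 317, 273, 303 and 250.1 CPM and 526, 427, 419.6 and 577 CPM (log2 fold change 0.77 ± 0.143, FDR = 0.0126). Selp (P-selectin), which lets white cells roll on activated vessel walls, was at 11.7, 4.70, 12.2 and 8.61 CPM in NOR and 60.6, 31.0, 39.0 and 124 CPM in CAC (log2 fold change 2.78 ± 0.493, FDR = 0.0111). All 3 genes separated the groups. Kdr, the main receptor for vascular endothelial growth factor, went the other way without being called (271, 205, 191 and 83.8 CPM in NOR and 89.8, 73.2, 96.6 and 140.2 CPM in CAC, log2 fold change −0.91 ± 0.341, FDR = 0.115). It was 1 of 3 endothelial markers with a negative log2 fold change, and 1 of the 13 was a downregulated DEG without NOR-4. The 12 macrophage markers summed to 257 to 709 CPM in NOR and 603 to 965 CPM in CAC, and 1 of them, Itgam, rose, a call lost without any 1 of the 8 mice (FDR from 0.0510 to 0.0870) and without the 3 libraries. The levels of Saa3 and Lcn2 were high in the same 4 mice as the neutrophil sum, and the part of neutrophils in the acute-phase values was not tested.

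**Figure D3:**
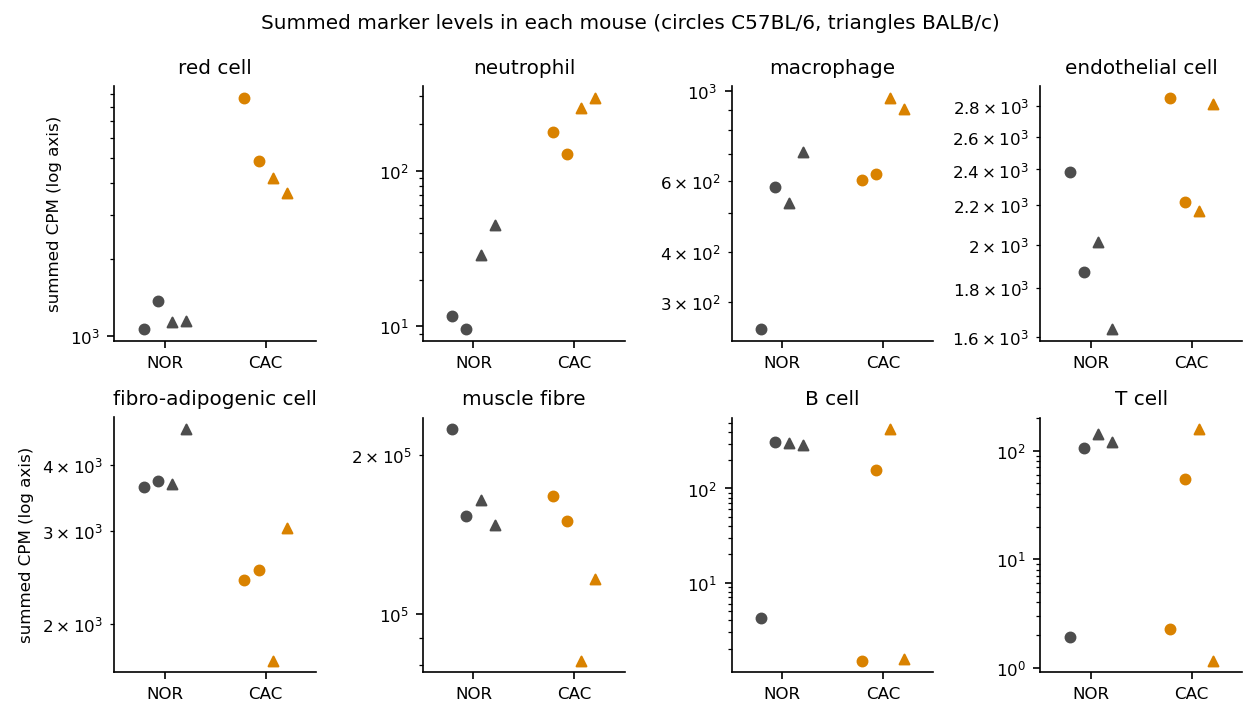
Summed CPM (log y axes) of 8 marker lists in each NOR (grey) and CAC (orange) mouse, with circles for C57BL/6 and triangles for BALB/c. Red cell and neutrophil sums separate the groups, whereas B cell and T cell sums are near 0 in NOR-1, CAC-1 and CAC-4.

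Genes of the proteasome, the machine that degrades ubiquitin-tagged proteins, were among those that rose. In the 19S cap, which unfolds the substrates, 11 of 21 genes rose and none fell (median 0.586, 8 to 14 with 1 mouse left out), and in 18 of the 21 every CAC mouse lay above every NOR mouse. In the 20S core, which cuts them, 4 of 14 rose and none fell (median 0.466, 3 to 5 with 1 mouse left out), and 9 of the 14 separated the groups. The without-3 fit called 12 and 6 of these genes. Psmd4, the cap's ubiquitin receptor, was at 168, 144, 154 and 155 CPM in NOR-1 to NOR-4 and 365, 349.9, 392 and 361 CPM in CAC-1 to CAC-4 (log2 fold change 1.24 ± 0.0915, FDR = 0.000878). Adrm1, a second ubiquitin receptor, was at 136, 114, 122 and 119 CPM in NOR and 252, 223, 242 and 219 CPM in CAC (log2 fold change 0.93 ± 0.0944, FDR = 0.00214). Psma7, a core ring subunit, was at 108, 101, 98.8 and 99.0 CPM in NOR and 204, 204, 265 and 242 CPM in CAC (log2 fold change 1.17 ± 0.109, FDR = 0.00191). The spread within each group was small beside the distance between them. Psmb5, a catalytic subunit of the core, had the smallest difference there, with 93.1, 83.3, 78.9 and 77.1 CPM in NOR and 100.1, 109, 96.6 and 49.4 CPM in CAC (log2 fold change 0.10 ± 0.224, FDR = 0.834).

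The enzymes that attach ubiquitin moved one by one rather than as a list. Of 37 ubiquitin ligases other than Fbxo32 and Trim63, 4 rose and 2 fell (median 0.118). Klhl38, a substrate adaptor of a cullin ligase, was at 49.7, 21, 20.6 and 34.8 CPM in NOR and 204, 106, 99.3 and 118 CPM in CAC (log2 fold change 2.07 ± 0.351, FDR = 0.00939). Asb11, another such adaptor, was at 121, 113, 107 and 104 CPM in NOR and 303, 304, 303 and 477 CPM in CAC (log2 fold change 1.64 ± 0.169, FDR = 0.00214). Ube4a, which lengthens ubiquitin chains, was at 60.9, 53.7, 47.9 and 56.9 CPM in NOR and 122, 119.8, 122 and 132 CPM in CAC (log2 fold change 1.18 ± 0.0938, FDR = 0.00121). Each of these 3 genes, and Fbxo31 with a log2 fold change of 1.12, was called whichever mouse was left out. The 2 that fell were Asb10 (log2 fold change −0.97), a call lost without NOR-1, NOR-2, NOR-3, NOR-4 or CAC-3 (FDR from 0.0518 to 0.0716), and Trim55 (−0.90), a call lost without NOR-1, NOR-2, NOR-3, CAC-1, CAC-3 or CAC-4 (FDR from 0.0517 to 0.0788), and neither was called without the 3 libraries. Of 30 genes of ubiquitin and its conjugating enzymes, 2 rose (Ubb and Ube2j1) and none fell, with none left without NOR-1, NOR-2, NOR-3, CAC-1 or the 3 libraries and 1 left without NOR-4, CAC-2, CAC-3 or CAC-4. In the fits without CAC-1 and without the 3 libraries 1 gene of this list fell, and with upper quartile scaling 0 rose.

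In autophagy, the delivery of cell contents to the lysosome, 4 of 38 genes rose and none fell (median 0.176, 3 to 6 with 1 mouse left out). Bnip3, which marks mitochondria for removal, was at 179.8, 159.6, 120.4 and 167 CPM in NOR and 401, 338, 371 and 366 CPM in CAC (log2 fold change 1.24 ± 0.138, FDR = 0.00272). Map1lc3b, which encodes the LC3 protein of the autophagosome, was at 231, 194, 187 and 197 CPM in NOR and 422, 305, 318 and 439 CPM in CAC (log2 fold change 0.88 ± 0.151, FDR = 0.00988). The other 2 were its relatives Gabarap and Gabarapl1, each with a log2 fold change of 0.64, calls that for Gabarap were lost without CAC-4 (FDR = 0.0133) and for Gabarapl1 lost without NOR-2, NOR-3, NOR-4, CAC-1 or CAC-4 (FDR from 0.0412 to 0.0671). With total-count scaling 9 autophagy genes rose. Of 31 lysosome genes, 3 rose (Ctsl, Atp6v1h and Gaa) and none fell. That count was 1 without NOR-1, 0 without NOR-2, 0 without NOR-3, 1 without NOR-4, 0 without CAC-1 and 0 without the 3 libraries. Retreg1, a receptor for the degradation of the endoplasmic reticulum that was on no list counted here and was chosen after its values were seen, was at 188, 156, 149.7 and 127 CPM in NOR and 683, 445, 681 and 896 CPM in CAC (log2 fold change 2.12 ± 0.224, FDR = 0.00228).

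FoxO factors themselves and genes that answer to them or to glucocorticoids differed as well. Of 19 FoxO and glucocorticoid response genes, 8 rose and 1 fell (median 1.08), and Lcn2 was counted both here and among the acute-phase genes. The count of upregulated DEGs was 4 without NOR-1, 4 without NOR-2, 2 without NOR-3, 4 without CAC-1, 4 without CAC-2 and 1 without the 3 libraries, and 2 genes fell without NOR-2. Foxo1 was at 45.4, 48.0, 46.6 and 68.1 CPM in NOR-1 to NOR-4 and 151, 138, 125 and 136 CPM in CAC-1 to CAC-4 (log2 fold change 1.401 ± 0.146, FDR = 0.00214). Foxo3 was at 55.0, 49.5, 51.3 and 62.1 CPM in NOR and 117, 108, 87.9 and 105 CPM in CAC (log2 fold change 0.94 ± 0.115, FDR = 0.00337). Both factors were higher in each CAC mouse than in any NOR mouse. Foxo4 did not separate the groups (134, 119, 122 and 107 CPM in NOR and 142, 145, 114 and 136 CPM in CAC, log2 fold change 0.16 ± 0.109, FDR = 0.375). Foxo6 moved the other way, from 14.4, 11.2, 13.3 and 8.49 CPM in NOR to 1.302, 1.70, 0.442 and 0.793 CPM in CAC, an 11.2-fold decrease (log2 fold change −3.49 ± 0.413, FDR = 0.00303). Fkbp5, a glucocorticoid receptor chaperone, was at 53.5, 48.7, 29.3 and 125 CPM in NOR and 305, 315, 168 and 213 CPM in CAC (log2 fold change 1.96 ± 0.437, FDR = 0.0229), a call lost without NOR-1, NOR-2, NOR-3, CAC-1 or CAC-2 (FDR from 0.0516 to 0.0717). NOR-4 was the highest normal mouse and lay close to CAC-3. The receptor gene itself, Nr3c1, was at 113, 108, 116 and 70.4 CPM in NOR and 117, 113, 83.8 and 85.4 CPM in CAC (log2 fold change −0.03 ± 0.187, FDR = 0.936).

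Of 27 genes of the mTOR pathway and its brakes, 4 rose and 1 fell (median 0.215). The upregulated count was 2 without NOR-1, 1 without NOR-3, 2 without CAC-1 and 1 without the 3 libraries. Sesn1, a leucine sensor that restrains mTOR, was at 43.0, 36.2, 42.4 and 55.5 CPM in NOR and 131, 102, 135 and 200.03 CPM in CAC (log2 fold change 1.68 ± 0.219, FDR = 0.00403) and was called whichever mouse was left out. Ddit4, a second brake induced by stress and steroids, was at 48.4, 17.0, 54.7 and 129 CPM in NOR and 405, 291, 261 and 332 CPM in CAC (log2 fold change 2.37 ± 0.526, FDR = 0.0226), a call lost without NOR-1, NOR-3 or CAC-1 (FDR from 0.0551 to 0.0709). The NOR mice varied more for Ddit4 than the CAC mice, and the groups lay apart. Its 1 downregulated member, Prkag3, a subunit of the AMP-activated kinase, had a log2 fold change of −1.81, a call lost without NOR-1, NOR-2, NOR-3, NOR-4 or CAC-4 (FDR from 0.0613 to 0.0999), and 2 genes fell without CAC-3 and 0 without the 3 libraries. Of 20 genes of IGF and insulin signalling, 3 rose and 1 fell (0 and 0 without the 3 libraries, and 2 fell without CAC-4). Akt1, the central kinase, was at 113, 113, 116 and 113 CPM in NOR and 174, 172, 276 and 258 CPM in CAC (log2 fold change 0.95 ± 0.169, FDR = 0.0111). Irs1, the receptor's docking protein, was at 107, 149, 74.6 and 80.7 CPM in NOR and 40.0, 36.5, 42.3 and 48.2 CPM in CAC (log2 fold change −1.301 ± 0.219, FDR = 0.00910). These 2 members moved in opposite directions, each with no overlap. Of 21 genes of myostatin, activin and TGF-beta signalling, 1 rose and 2 fell, and the rise, that of Inhbb, was lost without NOR-1, NOR-2, NOR-3, NOR-4, CAC-1, CAC-3 or CAC-4 (FDR from 0.0568 to 0.126) and without the 3 libraries. The downregulated count (Gdf11 and Fstl1) was 1 without NOR-2, NOR-3 or the 3 libraries and 4 without CAC-2. With total-count scaling 2 genes of the list rose and 3 fell, and with upper quartile scaling 0 rose and 3 fell. Mstn, which encodes myostatin, overlapped (73.2, 81.9, 95.0 and 76.1 CPM in NOR and 89.0, 110.0, 49.0 and 67.1 CPM in CAC, log2 fold change −0.05 ± 0.230, FDR = 0.919).

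Some genes that make protein also rose in CAC. Of 44 translation factors, 8 rose and none fell (median 0.394, 5 without CAC-1, 1 without the 3 libraries, 15 with total-count scaling and 4 with upper quartile scaling), and 28 of the 44 separated the groups upward. Eif1, which helps to find the start codon, was at 374, 367, 302 and 287 CPM in NOR and 596, 561, 552 and 544 CPM in CAC (log2 fold change 0.76 ± 0.121, FDR = 0.00764). Of 32 ribosome assembly genes, 6 rose and none fell (median 0.352, 4 to 7 with 1 mouse left out and 4 without the 3 libraries). Gnl3 (nucleostemin) was at 22.1, 23.3, 22.2 and 21.8 CPM in NOR and 44.6, 42.7, 55.8 and 34.6 CPM in CAC (log2 fold change 0.99 ± 0.139, FDR = 0.00483). Ddx21, a nucleolar helicase, was at 49.7, 60.7, 61.8 and 58.0 CPM in NOR and 101, 90.6, 120.3 and 83.8 CPM in CAC (log2 fold change 0.78 ± 0.130, FDR = 0.00859). The levels of these 3 genes were close among the NOR mice, and no CAC mouse reached down to them. Of 20 tRNA synthetases 1 rose, Vars, at 50.1, 57.3, 70.4 and 71.2 CPM in NOR and 119.8, 118, 157 and 110.1 CPM in CAC (log2 fold change 1.02 ± 0.156, FDR = 0.00650), although 8 of the 20 separated the groups upward, and 2 rose without CAC-3. Of 31 genes of the unfolded protein and integrated stress response, 1 rose, the transcription factor gene Xbp1 (log2 fold change 0.84 ± 0.153, FDR = 0.0119), and none without the 3 libraries. Slc3a2, the heavy chain of leucine transporters, was the single DEG among 21 amino acid transport genes, at 49.0, 55.3, 59.3 and 67.2 CPM in NOR and 121, 119, 134 and 179 CPM in CAC (log2 fold change 1.26 ± 0.159, FDR = 0.00377), and 3 genes rose without NOR-4, 2 without CAC-2 and 2 without CAC-3.

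**Figure D4:**
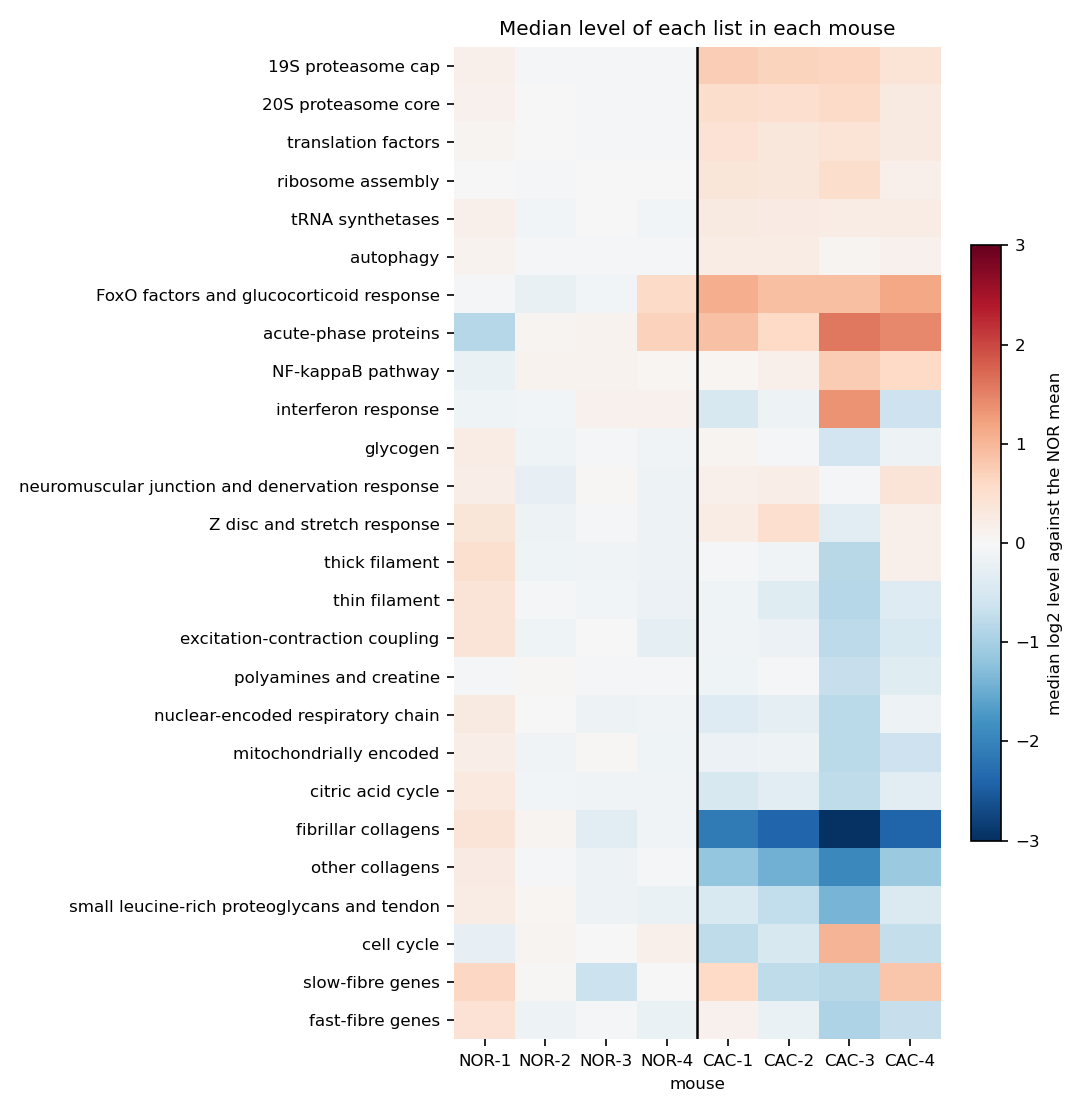
Median log2 level of 26 gene lists (rows) in each mouse (columns), relative to the NOR mean of each gene and with 0.5 CPM added, coloured from −3 (blue) to 3 (red). The fibrillar collagen row is blue in each of the 4 CAC mice, while the interferon and cell cycle rows are red in CAC-3 alone among the CAC mice.

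Genes of the thick and thin filaments were called about as often as all genes tested (4.32% up and 5.13% down). Of 22 thick filament genes 1 rose and 1 fell, of 17 thin filament genes 1 rose and 1 fell, and 1 of 11 fast-fibre genes fell (Casq1). Without the 3 libraries these counts were 1 and 0, 0 and 0, and 0. Every CAC mouse nevertheless lay below every NOR mouse for 7 of the 17 thin filament genes (41.2%) and 4 of the 11 fast-fibre genes (36.4%), and for 2 of the 22 thick filament genes. DESeq2 called 6, 4 and 3 genes of these lists, and with total-count scaling 3 fast-fibre genes fell. None of 10 slow-fibre genes was called by edgeR, with 1 at an unadjusted p under 0.05, 1 called by DESeq2 and 0 by limma-voom. Of the 20 genes with the highest deposited FPKM (fragments per kilobase of transcript, scaled to depth) in NOR, 1 was a DEG, the fast myosin light chain Myl1, at 9056, 7679, 7132 and 6555 CPM in NOR and 2918, 3643, 1131 and 1070.0 CPM in CAC (log2 fold change −1.80 ± 0.422, FDR = 0.0273), a call lost without NOR-1, NOR-2, NOR-3 or CAC-1 (FDR from 0.0510 to 0.0678) and without the 3 libraries. Acta1, skeletal actin, had the highest level, with a deposited mean of 39933 FPKM in NOR and 25282 FPKM in CAC, and was not called (log2 fold change −0.77 ± 0.335, FDR = 0.170). Its CPM was nevertheless below the lowest NOR mouse in each CAC mouse, as it was for Tpm1 (log2 fold change −1.04 ± 0.379, FDR = 0.107) and Tnnc2 (log2 fold change −0.81 ± 0.262, FDR = 0.0769). Smyd1, a methyltransferase needed to assemble myosin, was at 710.4, 549, 583 and 523 CPM in NOR and 333, 352, 201 and 272 CPM in CAC (log2 fold change −1.03 ± 0.193, FDR = 0.0130). Lmod2, which lengthens thin filaments, was at 183, 118, 146 and 200.3 CPM in NOR and 397, 346, 281 and 508 CPM in CAC (log2 fold change 1.25 ± 0.225, FDR = 0.0117). No mouse of one group fell within the range of the other for these 2 genes. The other called members, Mylk2 (log2 fold change 0.68) and Lmod3 (−0.68), depended on single mice: the call of Mylk2 was lost without NOR-2 (FDR = 0.0525), and that of Lmod3 lost without NOR-1, NOR-3 or CAC-1 (FDR from 0.0377 to 0.0550). The thick filament list had 2 upregulated DEGs without NOR-1 and 2 downregulated ones without CAC-2, and the thin filament list 2 downregulated ones without CAC-2.

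At the Z disc, which joins neighbouring sarcomeres, 4 of 25 genes rose and 2 fell. The upregulated count was 2 without each of NOR-2, NOR-3, NOR-4, CAC-2 and CAC-4, and without the 3 libraries 2 rose and 0 fell. Des (desmin), the intermediate filament that ties Z discs together, was at 3786, 2800.2, 2929.7 and 2817 CPM in NOR and 6453, 5831, 5394 and 7881 CPM in CAC (log2 fold change 1.05 ± 0.191, FDR = 0.0117). Myoz3, a calcineurin-binding Z disc protein of fast fibres, was at 65.6, 51.0, 58.4 and 47.4 CPM in NOR and 14.5, 16.2, 3.71 and 7.41 CPM in CAC (log2 fold change −2.41 ± 0.420, FDR = 0.0104). Fhl3, a LIM protein, was at 374, 267, 268 and 257 CPM in NOR and 158, 159, 96.7 and 168 CPM in CAC (log2 fold change −1.001 ± 0.202, FDR = 0.0163). All 3 were called in each fit with 1 mouse left out. None of 17 genes of the dystrophin complex was called by edgeR, with 6 at an unadjusted p under 0.05, 1 called by DESeq2 and 0 by limma-voom. Without the 3 libraries 1 of them was upregulated.

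Genes that couple excitation to contraction moved in both directions: of 22, 2 rose and 3 fell (median −0.421, 2 and 0 without the 3 libraries). Casq1 (chr1:172209894-172219868), which encodes the calcium store protein of the sarcoplasmic reticulum, was at 4845, 3153, 3708 and 2809.6 CPM in NOR-1 to NOR-4 and 959, 1148, 377 and 536 CPM in CAC-1 to CAC-4, a 4.81-fold decrease (log2 fold change −2.26 ± 0.373, FDR = 0.00858). The C57BL/6 CAC mice kept more of it than the BALB/c ones, and all 4 lay well below the NOR range. The calcium release channel Ryr1 (log2 fold change −0.02 ± 0.206, FDR = 0.964) and the calcium pump Atp2a1 (log2 fold change 0.02 ± 0.274, FDR = 0.973) were not called. Cacng1, a subunit of the voltage sensor, rose from 353, 279, 356 and 270.2 CPM in NOR to 573, 576, 589 and 873 CPM in CAC (log2 fold change 1.05 ± 0.181, FDR = 0.00990). Sln (sarcolipin), an inhibitor of the calcium pump, was at 12.1, 5.77, 2.08 and 3.495 CPM in NOR and 63.7, 32.6, 16.8 and 39.1 CPM in CAC (log2 fold change 2.71 ± 0.594, FDR = 0.0218). Its call was lost without NOR-2, NOR-3, NOR-4 or CAC-1 (FDR from 0.0523 to 0.0671), although the groups did not overlap. Jph2 and Stac3, which hold the channel complex together, fell by 1.34 and 1.14 on the log2 scale, calls that for Jph2 were lost without NOR-3 (FDR = 0.0593) and for Stac3 lost without NOR-2 or NOR-3 (FDR from 0.0517 to 0.0602). Of 14 genes of membrane excitability 3 fell (Atp1b2, Kcna7 and Clcn1, the last a call lost without NOR-1, NOR-2, NOR-3, CAC-1, CAC-3 or CAC-4 (FDR from 0.0503 to 0.0914)) and none rose, with 0 without NOR-3, 1 without CAC-1 and 0 without the 3 libraries. Kcng4, a modifier of potassium channels that was among the 15 largest decreases, was at 73.6, 51.4, 60.8 and 48.8 CPM in NOR and 6.24, 8.51, 2.44 and 6.61 CPM in CAC, 9.86-fold lower (log2 fold change −3.30 ± 0.356, FDR = 0.00245).

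Of 16 genes of the neuromuscular junction and the response to denervation, 4 rose and 1 fell. Gadd45a, a denervation-induced growth arrest gene, was at 25.1, 21.8, 27.8 and 36.1 CPM in NOR and 77.5, 56.7, 54.6 and 49.0 CPM in CAC (log2 fold change 1.10 ± 0.192, FDR = 0.0102) and was called whichever mouse was left out. Myog (myogenin) was at 6.78, 4.55, 5.92 and 6.65 CPM in NOR and 9.07, 14.5, 9.63 and 22.4 CPM in CAC (log2 fold change 1.22 ± 0.302, FDR = 0.0323), a call lost without NOR-1, NOR-2, NOR-3, NOR-4 or CAC-2 (FDR from 0.0599 to 0.0911). The upregulated count was 1 without NOR-2, 1 without NOR-3, 2 without NOR-4 and 0 without the 3 libraries, and the fall, that of Ache, was lost without NOR-1, NOR-2, NOR-3, CAC-1, CAC-3 or CAC-4 (FDR from 0.0512 to 0.0860) and without the 3 libraries. Of 16 myogenic regulators and satellite cell genes, 2 rose (Myog and Cdh15, a muscle cadherin) and 1 fell (Mef2c, a muscle transcription factor, log2 fold change −0.78 ± 0.200, FDR = 0.0361). The call of Mef2c was lost without NOR-1, NOR-2, NOR-3, NOR-4, CAC-1, CAC-3 or CAC-4 (FDR from 0.0509 to 0.0835), and that of Cdh15 lost without NOR-2, NOR-3, CAC-1 or CAC-4 (FDR from 0.0541 to 0.0786). No gene of the list rose without NOR-2 or NOR-3, and the counts were 0 and 0 without the 3 libraries.

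Some genes of energy metabolism outside glycolysis fell. Of 80 nuclear genes of the respiratory chain, 12 fell and none rose (median −0.391), and in 33 of the 80 every CAC mouse lay below every NOR mouse. The count depended strongly on single mice: it was 1 without NOR-1, 1 without NOR-2, 3 without NOR-3, 2 without CAC-1, 7 without CAC-2, 7 without CAC-3 and 0 without the 3 libraries, where the median was −0.430. It was 25 with the lymphocyte marker level as a covariate. The largest fall of the list was that of Cox7a1 (log2 fold change −1.43), a call lost without NOR-1, NOR-2 or CAC-1 (FDR from 0.05144 to 0.05675). Cycs (cytochrome c), the single one called in every fit with 1 mouse left out, was at 377, 359, 318 and 298 CPM in NOR and 181, 207, 141 and 228 CPM in CAC (log2 fold change −0.84 ± 0.161, FDR = 0.0141). None of the 13 genes of the mitochondrial genome was called by edgeR, with 2 at an unadjusted p under 0.05, 0 called by DESeq2 and 0 by limma-voom, though each had a negative log2 fold change (−0.492 to −0.212). Of 23 genes of the citric acid cycle 6 fell and none rose (median −0.480), with 2 without NOR-1, 1 without NOR-2, 2 without NOR-3, 3 without NOR-4, 1 without CAC-1, 2 without CAC-2, 1 without CAC-3 and 0 without the 3 libraries. Total-count scaling gave 2 and upper quartile scaling 10. The largest fall of that list was that of Pdp1 (log2 fold change −1.83), a call lost without NOR-2, NOR-3, CAC-1, CAC-2, CAC-3 or CAC-4 (FDR from 0.0555 to 0.0816). Idh3a, a subunit of isocitrate dehydrogenase, was at 639, 497, 488 and 447 CPM in NOR and 258, 299, 184 and 278 CPM in CAC (log2 fold change −1.02 ± 0.180, FDR = 0.0107). Cycs and Idh3a both separated the groups. Of 78 genes of the mitochondrial ribosome 2 fell, Mrps12 with log2 fold change −0.77 ± 0.111, FDR = 0.00540 and Mrpl19, a call lost without NOR-1 (FDR = 0.0174), and 4 fell without CAC-4, 0 without the 3 libraries, 4 with upper quartile scaling and 1 with total-count scaling. Of 23 genes of fatty acid oxidation 1 fell, Acads, a call lost without NOR-1, NOR-2, NOR-3, NOR-4, CAC-1 or CAC-3 (FDR from 0.0354 to 0.0713) and without the 3 libraries, and 2 fell without CAC-4. The mitochondrial ribosome and fatty acid oxidation lists held a smaller share of downregulated DEGs than all genes tested (5.13%), with medians of −0.0771 and −0.11.

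A group of genes of polyamine and creatine metabolism was also compared. Of 17 such genes 5 fell and none rose (median −0.299), with 4 to 5 in the fits with 1 mouse left out and 3 without the 3 libraries. Arg2 had the highest log2 fold change (2.42) and was not called. Every CAC mouse lay above every NOR mouse in 2 of the 17 (11.8%, against 12.3% of all genes tested) and below in 7 (41.2%, against 10.6%). With the lymphocyte covariate 1 gene rose and 7 fell. Amd1 (chr10:40287458-40302186), which supplies the aminopropyl groups of polyamines, was at 1130.4, 1307, 1423 and 1185 CPM in NOR-1 to NOR-4 and 207, 272, 85.4 and 69.9 CPM in CAC-1 to CAC-4, 7.95-fold lower (log2 fold change −2.99 ± 0.441, FDR = 0.00590). Amd2, a copy of it with which it may share reads, went from 122, 143, 154 and 131 CPM to 24.1, 29.0, 9.43 and 15.7 CPM (log2 fold change −2.82 ± 0.323, FDR = 0.00272). Smox, which oxidises spermine, went from 465, 465, 532 and 474 CPM in NOR to 89.4, 95.2, 33.1 and 31.5 CPM in CAC (log2 fold change −2.96 ± 0.399, FDR = 0.00435). The NOR mice were close together for these genes, and the BALB/c CAC mice lay lowest. Gamt, which completes the synthesis of creatine, was at 23.9, 18.3, 17.1 and 16.8 CPM in NOR and 5.78, 4.97, 2.38 and 4.04 CPM in CAC (log2 fold change −2.15 ± 0.271, FDR = 0.00380). Ckmt2, the mitochondrial creatine kinase, was at 2055, 1577, 1528 and 1499.8 CPM in NOR and 617, 779, 294 and 1015 CPM in CAC (log2 fold change −1.2997 ± 0.339, FDR = 0.0382), a call lost without NOR-1, NOR-2, NOR-3, NOR-4, CAC-1 or CAC-2 (FDR from 0.0643 to 0.0940). Odc1, which makes the first polyamine, was not called, with 204, 307, 198 and 227 CPM in NOR and 411, 333, 209 and 78.0 CPM in CAC (log2 fold change 0.14 ± 0.434, FDR = 0.879).

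Of 21 genes of adenine and guanine nucleotides, 3 rose and 3 fell. Ampd3, the AMP deaminase of red cells and of wasting muscle, was at 30.6, 22.8, 23.8 and 28.5 CPM in NOR and 53.4, 47.5, 53.4 and 76.0 CPM in CAC (log2 fold change 1.12 ± 0.167, FDR = 0.00603). Red cell markers were higher in the same CAC mice, and their part in the Ampd3 values was not tested. Ampd1, the muscle form, was at 1337, 997, 1118 and 913 CPM in NOR and 636, 477, 171 and 340.3 CPM in CAC (log2 fold change −1.43 ± 0.360, FDR = 0.0345). The 2 forms moved in opposite directions with no overlap, but the call of Ampd1 was lost without NOR-1, NOR-2, NOR-3, NOR-4, CAC-2 or CAC-4 (FDR from 0.0540 to 0.0832). The downregulated count of the list was 1 without NOR-1, 0 without NOR-2, 0 without NOR-3, 1 without NOR-4 and 0 without the 3 libraries. Of 16 glycogen genes 3 rose and none fell, among them Ppp1r3c, which targets a phosphatase to glycogen, at 396, 266, 140.2 and 367 CPM in NOR and 1041, 1334, 787 and 934 CPM in CAC (log2 fold change 1.81 ± 0.325, FDR = 0.0114), and 1 rose without the 3 libraries. Of 15 iron genes 2 fell (1 without the 3 libraries): Tfrc, the transferrin receptor, was at 199, 174, 175 and 124 CPM in NOR and 35.4, 77.3, 40.1 and 22.8 CPM in CAC (log2 fold change −1.93 ± 0.351, FDR = 0.0117), and Steap3, an iron reductase, at 60.3, 45.1, 46.8 and 37.6 CPM and 20.1, 23.9, 18.3 and 26.5 CPM (log2 fold change −1.10 ± 0.172, FDR = 0.00718).

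In cytokine signalling, Osmr, the receptor chain for oncostatin M, was at 20.7, 24.4, 27.8 and 29.4 CPM in NOR and 83.6, 62.0, 70.0 and 101 CPM in CAC (log2 fold change 1.63 ± 0.175, FDR = 0.00245) and was called whichever mouse was left out. It was 1 of 3 upregulated genes among 19 of the IL-6 family and its JAK and STAT proteins, with 1 left without each of NOR-1, NOR-2, NOR-3 and NOR-4 and 1 without the 3 libraries. Stat3 was at 101, 104, 102 and 96.0 CPM in NOR and 161, 144, 166 and 297 CPM in CAC (log2 fold change 0.93 ± 0.220, FDR = 0.0277), and its call was lost without NOR-1, NOR-2, NOR-3 or NOR-4 (FDR from 0.0635 to 0.0760). Of 18 genes of the NF-kappaB pathway 5 rose and none fell, with 2 without NOR-3, 3 without CAC-1 and 2 without the 3 libraries. Nfkbib, an inhibitor of NF-kappaB, was at 41.7, 34.4, 36.3 and 39.2 CPM in NOR and 76.1, 70.1, 86.8 and 72.4 CPM in CAC (log2 fold change 1.01 ± 0.0997, FDR = 0.00209). None of 25 interferon response genes was called by edgeR, with 0 at an unadjusted p under 0.05, 0 called by DESeq2 and 0 by limma-voom.

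Early response genes split in 2 directions. Of 20 genes of the C/EBP, AP-1 and immediate early group 4 rose and 3 fell, and the upregulated count was 2 without NOR-2, 2 without NOR-3, 2 without CAC-1 and 1 without the 3 libraries (2 fell there). Egr1, a serum and stretch responsive factor, was at 82.0, 71.3, 116 and 66.2 CPM in NOR and 22.6, 16.04, 18.7 and 20.2 CPM in CAC (log2 fold change −2.11 ± 0.194, FDR = 0.00191). Nr4a1, an exercise responsive nuclear receptor, was at 234, 189, 276 and 192 CPM in NOR and 113, 112, 66.4 and 95.1 CPM in CAC (log2 fold change −1.21 ± 0.198, FDR = 0.00847). Ier3, a survival gene, went up from 4.89, 8.90, 9.23 and 11.7 CPM in NOR to 27.3, 21.6, 22.3 and 27.9 CPM in CAC (log2 fold change 1.51 ± 0.246, FDR = 0.00835). Of 18 p53 targets 3 rose and 1 fell, with 2 falls without CAC-1, 2 rises and 0 falls without the 3 libraries, and the fall, that of Ccng1, lost without NOR-2 (FDR = 0.0503). The 3 were Eda2r, Sesn1 and Gadd45a. Sesn1 was also counted among the mTOR genes and Gadd45a among the denervation genes. The largest rise was that of Eda2r, the ectodysplasin A2 receptor, at 21.8, 24.05, 15.8 and 14.5 CPM in NOR and 89.3, 66.4, 71.4 and 65.9 CPM in CAC (log2 fold change 1.94 ± 0.190, FDR = 0.00197). Egr1, Nr4a1, Ier3 and Eda2r separated the groups in both strains. Of 27 antioxidant genes 2 rose, Gstm2 (log2 fold change 0.94 ± 0.170, FDR = 0.0116) and Gsr (log2 fold change 0.79 ± 0.111, FDR = 0.00479), and 4 rose without NOR-4.

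Circadian clock genes, which were 3 upregulated and 2 downregulated DEGs of 18, showed 2 kinds of pattern. Nfil3, a repressor of clock output genes, was at 34.0, 35.1, 19.7 and 45.5 CPM in NOR-1 to NOR-4 and 81.0, 95.5, 61.7 and 106 CPM in CAC-1 to CAC-4 (log2 fold change 1.36 ± 0.261, FDR = 0.0141). Bhlhe41, a repressor of the clock, was at 72.8, 46.6, 95.8 and 60.3 CPM in NOR and 18.0, 23.3, 15.9 and 15.3 CPM in CAC (log2 fold change −1.93 ± 0.235, FDR = 0.00337). Both separated the groups in both strains and were called whichever mouse was left out. The upregulated count was 2 in every fit with 1 mouse left out, and the downregulated count was 1 without each of NOR-2, NOR-3, CAC-1, CAC-2, CAC-3 and CAC-4, the other member being Bhlhe40, and without the 3 libraries the list held 0 DEGs in either direction. Core genes instead separated the NOR mice by strain. Arntl (BMAL1), the positive arm, was at 63.3, 42.1, 8.97 and 8.56 CPM in NOR and 40.1, 30.7, 40.0 and 24.2 CPM in CAC (log2 fold change 0.14 ± 0.620, FDR = 0.918). Per2, of the negative arm, was at 2.90, 6.15, 39.0 and 56.7 CPM in NOR and 39.1, 35.4, 30.2 and 48.1 CPM in CAC (log2 fold change 0.54 ± 0.785, FDR = 0.713). Dbp, a clock output factor, was at 17.0, 26.1, 204 and 124 CPM in NOR and 20.6, 20.2, 6.40 and 17.4 CPM in CAC (log2 fold change −2.52 ± 0.791, FDR = 0.0688). In the normal C57BL/6 mice Arntl was high and Per2 and Dbp were low, and in the normal BALB/c mice the reverse held, whereas the 4 CAC mice lay closer together. No source used here gives the hour at which each mouse was killed.

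The heat shock genes Hspa1b, Hspa1a and Dnajb1, chosen after their values were seen, followed the same split. Hspa1b, an inducible chaperone whose reads may be shared with Hspa1a, was at 24.9, 35.5, 2479 and 2266 CPM in NOR and 32.5, 66.7, 34.1 and 67.0 CPM in CAC (log2 fold change −4.58 ± 1.44, FDR = 0.0695). Dnajb1, its co-chaperone, was at 14.2, 24.8, 205 and 199 CPM in NOR and 18.1, 20.6, 25.7 and 24.3 CPM in CAC (log2 fold change −2.32 ± 0.805, FDR = 0.0927). Only NOR-3 and NOR-4 were high, and neither gene was a DEG. Of 25 heat shock genes 1 rose and none fell, the rise being that of Hspb7, a small muscle chaperone, at 768, 415, 410.0 and 541 CPM in NOR and 1015, 1634, 1164 and 1878 CPM in CAC (log2 fold change 1.42 ± 0.276, FDR = 0.0146), a call lost without NOR-3 (FDR = 0.0513). The downregulated count was 4 without NOR-1 and 2 without CAC-2.

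**Figure D5:**
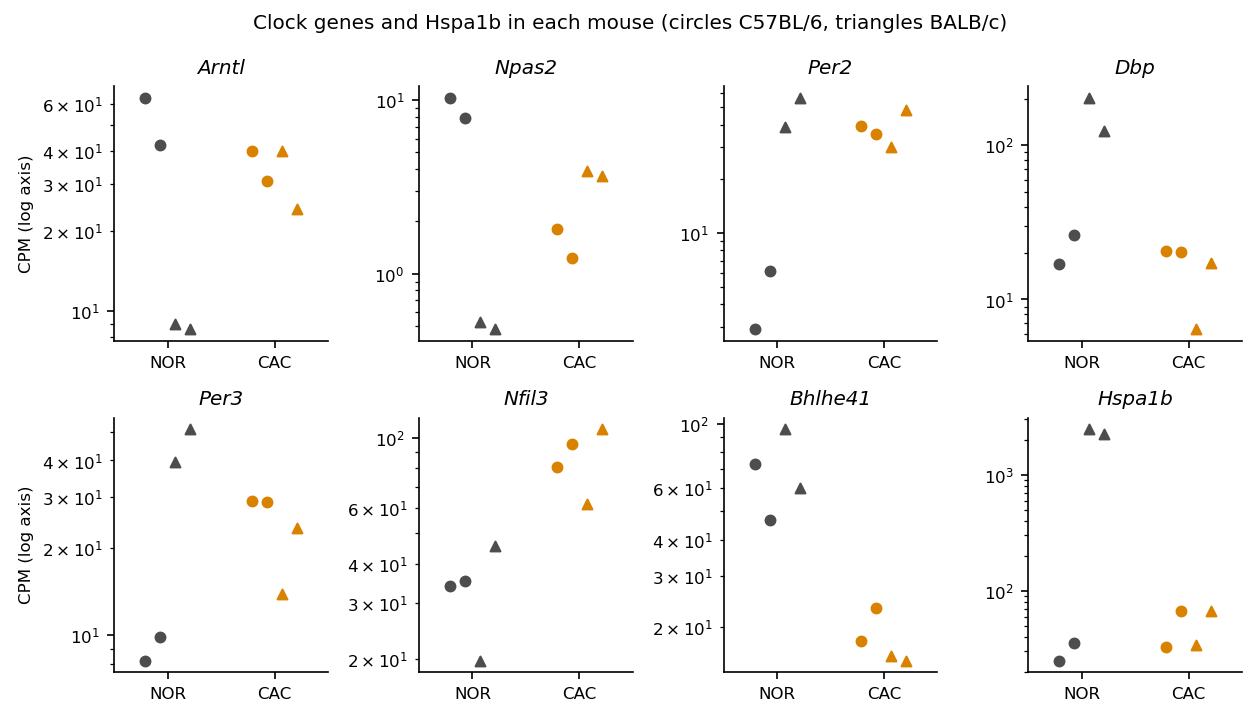
Expression in CPM (log y axes) of 7 clock genes and the heat shock gene Hspa1b in each NOR (grey) and CAC (orange) mouse, with circles for C57BL/6 and triangles for BALB/c. Nfil3 and Bhlhe41 separate CAC from NOR, while Arntl, Npas2, Per2, Dbp, Per3 and Hspa1b separate the strains within NOR.

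Whether the CAC difference itself depended on strain and tumor line was tested as an interaction over the 14666 genes. None passed an FDR of 0.05 in edgeR's quasi-likelihood test (0% called), with 717 genes at an unadjusted p under 0.05, whereas DESeq2 called 125. With 2 mice per strain and group the test has little precision, and a strain difference cannot be told apart from one between the LLC and CT26 tumors.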

How the data were processed

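RNA-seq of gastrocnemius RNA was analysed in 8 of 16 libraries (4 CAC, 4 NOR). The authors deposited 1 table of 21923 genes with raw read counts and FPKM values per sample, and no column of it was left unmapped (0). The submitters' processing notes name fastp, Bowtie2, HISAT2 and StringTie 1.3.1 and the builds mm9 and GRCm38, with no role or order. Strandedness was not given in the sources used here. The study called DEGs with NOISeq. Here the deposited counts were tested with edgeR 4.0.16 in R 4.3.3 (TMM scaling, filterByExpr at a count of 10 and a sum of 15, quasi-likelihood F test with group as the single factor), with Benjamini-Hochberg adjustment over all genes tested, and DEGs had to reach 1.5-fold in either direction at an FDR no higher than 0.05. The script was tested on simulated data. CPM used TMM library sizes. The deposited FPKM was used for levels of abundant genes only. Of the identifiers, 21905 matched GENCODE M21 (GRCm38), which gave the coordinates.

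The members and gene lists were chosen with earlier results of these data known. 1 clock gene was taken off its list and is not reported here. Named genes were the 15 largest DEGs per direction outside a list of 43 genes, mainly of glycolysis, ketone use and atrophy, with a group mean of at least 10 CPM and 1 sign in both strains, up to 3 DEGs per list and direction, the 20 genes with the highest FPKM and the cell type markers, of which the text gives a part. Actc1, Arntl, Bgn, Cdkn1a, Ciart, Ckmt2, Clock, Col4a1, Col5a2, Col6a3, Dbp, Dcn, Dnajb1, Fbxo31, Foxo1, Foxo3, Foxo4, Gabarap, Gamt, Hba-a1, Hba-a2, Hlf, Hp, Hspa1a, Hspa1b, Itih4, Lrg1, Mstn, Npas2, Nr1d2, Nr3c1, Odc1, Per2, Per3, Psmb5, Retreg1, Ryr1, Scx, Serpina3m and Tef were added after their values were seen. Alternatives used DESeq2 1.42.0, limma-voom 3.58.1, other scalings and filters, fits by strain and fits with 1 mouse left out. A single value with 4 against 4 mice cannot go below an exact two-sided permutation p of 0.0286.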

Additional observations from a re-analysis of the deposited data

Results flagged for a closer look

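In 22 of 370 groups of 4 mice looked at, 1 mouse lay far from the other 3 in relation to the range of the group, where chance gives about 1 in 20. CAC-4 was the high mouse for Mt2 (602 CPM), Acer2 (123 CPM), Ube2j1 (104 CPM), Asb11 (477 CPM), Cacng1 (873 CPM) and Ugp2 (831 CPM). CAC-3 was the low mouse for Tnmd (1.38 CPM), Col1a2 (70.0 CPM) and Fhl3 (96.7 CPM), and CAC-1 the high mouse for Col3a1 (168 CPM). NOR-4 was the high mouse for Mt1 (54.3 CPM), Acer2 (18.3 CPM), Xdh (141 CPM) and the summed markers of fibro-adipogenic cells (4682 CPM) and adipocytes (7834 CPM). NOR-1 was the high mouse for Des (3786 CPM) and Fhl3 (374 CPM) and the low mouse for Eif1a (11.1 CPM), B cell markers (4.18 CPM) and T cell markers (1.94 CPM). NOR-3 was the low mouse for Col3a1 (678 CPM) and the high mouse for Smox (532 CPM).

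In 8 clock genes both mice of one strain moved one way against NOR and both mice of the other strain the opposite way. The log2 fold change of CAC over NOR in C57BL/6 minus that in BALB/c was −2.45 for Arntl, −1.32 for Clock, −5.49 for Npas2, 2.96 for Per3, 0.921 for Nr1d2, 1.25 for Tef, 1.89 for Hlf and 2.99 for Ciart. None of these passed an FDR of 0.05 in the edgeR interaction test. DESeq2 called 125 genes in all, 6 of these 8 among them: Npas2 (FDR = 6.82e-22), Tef (5.09e-10), Per3 (1.67e-08), Ciart (7.57e-08), Hlf (1.54e-05) and Arntl (7.41e-05).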

How the results depend on the processing

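The main comparison gave 633 upregulated and 753 downregulated DEGs. Leaving out 1 mouse gave 343 to 596 and 385 to 726, with the fewest without NOR-3 (343 and 385), NOR-2 (379 and 429) and CAC-1 (438 and 484). Without a fold limit 1143 rose, and with a limit of 2-fold 302 rose and 466 fell. Total-count scaling gave 959 up and 619 down. DESeq2 gave 839 and 1082. With labelled strain as a covariate, 655 rose and 837 fell, and 5 of the 171 named calls were lost. The C57BL/6 mice alone gave 125 and 122. The BALB/c mice alone gave 0 and 0 in edgeR, with 2578 genes at an unadjusted p under 0.05 and 3310 in the C57BL/6 mice. Without the 3 libraries low in lymphocyte markers, a fit added after seeing the data, 225 rose and 173 fell, and 350 of the 1386 DEGs were shared. With the lymphocyte marker level as a covariate, also added, the counts were 676 and 1030, with 1280 shared. The strain interaction called 0 genes in edgeR and 125 in DESeq2. The fits with mice left out gave fewer DEGs in all, though some lists held more. The number of mice cannot be told apart there from which mice were left out, and the cause of the shifts was not tested. Same-numbered NOR and CAC mice share a labelled strain. They deviated with correlations of 0.631, 0.191, 0.391 and −0.216, and not every mouse correlated best with its own number. NOR-1, low in lymphocyte markers, correlated at 0.631 and 0.414 with CAC-1 and CAC-4, also low in them, and at −0.678 with CAC-3. These correlations therefore cannot show whether the numbers pair the mice. A replicate block gave 533 and 607. For 171 DEGs named by rule, 3099 of 3931 values under alternatives kept the call, 832 lost it and 0 changed direction. Scaling by total counts also moved the upregulated counts of 20S proteasome core (4 to 7), lysosome (3 to 5), tRNA synthetase (1 to 3), unfolded protein response (1 to 4), amino acid transport (1 to 4), heat shock (1 to 3) and antioxidant genes (2 to 4). The lymphocyte covariate raised the downregulated counts of tendon and proteoglycan (7 to 12), laminin and basement membrane (6 to 10), fibro-adipogenic marker (2 to 5) and myogenic genes (1 to 5), and the upregulated count of neutrophil markers (5 to 9). Upper quartile scaling moved the downregulated counts of the thick filament (1 to 2), thin filament (1 to 2), fast-fibre (1 to 2), myogenic (1 to 2), fatty acid oxidation (1 to 2), IGF and insulin (1 to 2), FoxO and glucocorticoid response (1 to 2), adenine nucleotide (3 to 5) and antioxidant lists (0 to 2).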

Other observations

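Matrix proteases and their inhibitors, which were not described above, moved in both directions: of 22 genes 2 rose and 6 fell. Mmp9, a gelatinase carried by neutrophils among other cells, was at 3.80, 8.32, 5.84 and 6.55 CPM in NOR and 15.6, 10.1, 20.2 and 28.9 CPM in CAC (log2 fold change 1.61 ± 0.347, FDR = 0.0205), a call lost without NOR-3 (FDR = 0.0647). Adamts5, which cuts proteoglycans, was at 35.4, 36.1, 33.6 and 35.7 CPM in NOR and 19.1, 19.9, 13.4 and 21.6 CPM in CAC (log2 fold change −0.92 ± 0.144, FDR = 0.00709). Timp4, an inhibitor of matrix proteases, was at 46.8, 60.9, 42.3 and 108 CPM in NOR and 166, 109, 144 and 311 CPM in CAC (log2 fold change 1.4998 ± 0.397, FDR = 0.0401), a call lost without NOR-1, NOR-2, NOR-3, CAC-1, CAC-3 or CAC-4 (FDR from 0.0547 to 0.108). Mmp23, a membrane-bound protease, was at 3.99, 5.20, 5.11 and 6.04 CPM in NOR and 1.94, 2.76, 2.54 and 2.43 CPM in CAC (log2 fold change −1.07 ± 0.192, FDR = 0.0112). Adamts5 and Mmp23 were called whichever mouse was left out, and each of the 4 genes separated the groups. The downregulated count was 3 without NOR-1, NOR-2, NOR-3, CAC-1 or CAC-2, and without the 3 libraries low in lymphocyte markers 0 genes rose and 1 fell. The upregulated count was 0 without NOR-3 and 1 without NOR-1, NOR-2, CAC-1, CAC-3 or CAC-4.

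Bckdk, the kinase that switches off branched-chain amino acid breakdown, was at 186, 158, 159.9 and 171 CPM in NOR and 93.2, 106, 111 and 106 CPM in CAC (log2 fold change −0.70 ± 0.0940, FDR = 0.00428) and was the single DEG among 20 genes of that pathway, with 0 without the 3 libraries. With total-count scaling 0 genes of that pathway fell and 1 rose. Of 26 genes of lipid supply and its regulators 2 rose and 2 fell, and 0 in either direction without the 3 libraries. The upregulated count was 0 without NOR-2, NOR-3, CAC-1, CAC-3 or CAC-4. The downregulated count was 0 without NOR-1, NOR-2, NOR-3, CAC-1 or CAC-2. With total-count scaling 4 rose and 1 fell. Plin4, a lipid droplet protein gene, was at 183, 251, 263 and 455 CPM in NOR and 531, 483, 678 and 716 CPM in CAC (log2 fold change 1.06 ± 0.277, FDR = 0.0382), a call lost without NOR-1, NOR-2, NOR-3, CAC-1, CAC-2, CAC-3 or CAC-4 (FDR from 0.0566 to 0.106). Esrra, a nuclear receptor for mitochondrial genes, was at 117, 99.5, 95.3 and 102 CPM in NOR and 55.8, 64.1, 47.2 and 82.1 CPM in CAC (log2 fold change −0.73 ± 0.166, FDR = 0.0244), a call lost without NOR-1, NOR-2, NOR-3, CAC-1 or CAC-2 (FDR from 0.0517 to 0.0684).

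CAC-3 differed from the other CAC mice in 2 lists without a called gene. The median level of 25 interferon response genes, relative to the NOR mean and on the log2 scale, was −0.124, −0.0861, 0.127 and 0.120 in NOR-1 to NOR-4 and −0.477, −0.156, 1.35 and −0.615 in CAC-1 to CAC-4. For 24 cell cycle genes it was −0.243, 0.0869, −0.00406 and 0.163 in NOR-1 to NOR-4 and −0.769, −0.469, 1.02 and −0.726 in CAC-1 to CAC-4. In the comparison of all 8 mice neither list held a DEG by edgeR, with 0 and 2 genes at an unadjusted p under 0.05, 0 and 1 called by DESeq2 and none by limma-voom. Without CAC-3, 6 cell cycle genes were downregulated DEGs and none of the interferon response genes was called. CAC-3 also had the highest B cell marker sum, and whether the values move together was not tested.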
